A study of Mus musculus with 6 samples.

Results

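The 10 genes described here encode granule proteins, IgE receptor chains and a histamine-making enzyme of basophils, mast cells and eosinophils, and were chosen by symbol as 10 of the 32285 genes counted. They were Prss34, Mcpt8, Cpa3, Ms4a2, Fcer1a and Hdc for basophils and mast cells, and Epx, Prg2, Prg3 and Ear6 for eosinophils. Bone marrow cells of 9 BALB/c mice, 10 weeks old at harvest, had been enriched for c-Kit with magnetic beads and profiled by droplet single-cell RNA-Seq, which counts unique molecular identifiers (UMIs) near the 3′ end of transcripts. The 3 groups of 3 mice were untreated non-tumor-bearing (NTB) mice, bearers of 4T1 tumors given DPBS buffer as vehicle, and bearers of 4T1 tumors given brequinar (BRQ) at 10 mg/kg, both injected daily and intraperitoneally for 2 weeks from when tumors could be measured. The 4T1 line is a mouse mammary carcinoma that expands myeloid cells, and BRQ inhibits dihydroorotate dehydrogenase, an enzyme of pyrimidine synthesis. NTB and vehicle mice differed in both the tumor and the injections. The bead enrichment also means that the share of a cell type here is not its share of the marrow.

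Basophils and mast cells carry the high-affinity IgE receptor, whose crosslinking releases granules loaded with histamine and proteases. Eosinophils arise from related progenitors that use GATA transcription factors, and fill their granules with basic proteins, a peroxidase and ribonucleases. Mature mast cells finish their development in tissues, whereas basophils and eosinophils leave the marrow as mature cells, so enrichment for c-Kit favors their precursors.

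Each of the 3 pools was 1 lane that held 1 mouse of each group, told apart by hashtag antibodies, and mice are numbered by pool. After demultiplexing and filtering, 15966 of 39488 deposited barcodes remained as singlets, between 382 (vehicle 2) and 2780 (vehicle 1) per mouse, with 4586673 to 36868303 gene UMIs per mouse. Between 33.1% and 52.2% of the deposited barcodes per pool had no hashtag call and were left out. A total of 127 barcode sequences occurred in 2 or more pools and were treated as different cells. The singlets formed 20 clusters, of which 15 could be named "-like" from marker lists that left out the 10 genes and 5 stayed unnamed.

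All 10 genes were found in the GENCODE M21 annotation of GRCm38 as protein-coding genes. Prss34 lies at chr17:25298394-25300165 (+), Mcpt8 at chr14:56082166-56085273 (-), Cpa3 at chr3:20215620-20242181 (-), Ms4a2 at chr19:11615523-11623719 (-), Fcer1a at chr1:173221284-173227214 (-) and Hdc at chr2:126593667-126619299 (-). Epx lies at chr11:87864000-87875536 (-), Prg2 at chr2:84980461-84983632 (+), Prg3 at chr2:84988215-84993886 (+) and Ear6 at chr14:51853699-51854643 (+). Only the 2 same-strand microRNA genes within Mcpt8 and Cpa3, Mir6949 and Mir7007, overlapped any of them. The transcripts of 7 genes shared no stretch of 50 bases with another gene. The share of such stretches was 2.1% for Ms4a2 (shared with Ms4a4b), 0.95% for Ear6 (shared with Ear1, Ear2 and Ear10) and 0.14% for Hdc.

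The 250 bases before the transcription start are shown for 4 of the genes, because Prss34, Cpa3 and Ms4a2 were concentrated in the same few cells while Epx was not. They come from RefSeq on GRCm38.p6, and capitals mark GATAA, the core letters bound by GATA factors, or its reverse complement TTATC. The windows are chr17:25298144-25298393 (+) for Prss34, chr3:20242182-20242431 (-) for Cpa3, chr19:11623720-11623969 (-) for Ms4a2 and chr11:87875537-87875786 (-) for Epx.
Prss34 promoter: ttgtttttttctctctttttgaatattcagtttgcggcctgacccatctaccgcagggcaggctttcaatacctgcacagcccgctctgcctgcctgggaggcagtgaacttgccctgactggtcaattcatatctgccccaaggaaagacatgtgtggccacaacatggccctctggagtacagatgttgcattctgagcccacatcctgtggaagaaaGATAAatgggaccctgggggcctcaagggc
Cpa3 promoter: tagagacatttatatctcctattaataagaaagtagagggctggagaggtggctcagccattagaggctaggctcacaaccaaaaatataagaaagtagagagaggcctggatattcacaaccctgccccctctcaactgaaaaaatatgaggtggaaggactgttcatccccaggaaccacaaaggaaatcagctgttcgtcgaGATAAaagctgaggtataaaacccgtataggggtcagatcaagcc
Ms4a2 promoter: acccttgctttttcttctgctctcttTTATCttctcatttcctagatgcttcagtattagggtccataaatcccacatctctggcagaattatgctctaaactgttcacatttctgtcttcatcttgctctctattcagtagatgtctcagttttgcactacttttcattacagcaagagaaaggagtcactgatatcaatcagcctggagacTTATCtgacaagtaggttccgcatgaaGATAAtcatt
Epx promoter: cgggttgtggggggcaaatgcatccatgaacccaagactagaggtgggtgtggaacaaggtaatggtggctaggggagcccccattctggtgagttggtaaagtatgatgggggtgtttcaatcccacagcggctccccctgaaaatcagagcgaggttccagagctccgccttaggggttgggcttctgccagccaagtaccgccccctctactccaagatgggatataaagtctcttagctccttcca

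These letters occurred in the windows of 5 of the 9 genes with a RefSeq promoter, compared with 22.6% of all 32851 promoters of the same length. Ms4a2 held 3 matches, starting 224, 37 and 10 bases before the start, Cpa3 held 1 at 45 bases and Prss34 held 1 at 30 bases. Fcer1a held 1 at 92 bases and Prg3 held 2, at 123 and 111 bases. None was found in the windows of Mcpt8, Hdc, Epx or Ear6, and Prg2 had no entry. The RefSeq starts of Hdc, Mcpt8 and Ear6 lie 621, 76 and 69 bases inside the GENCODE spans given above. The Hdc window thus lies within its span and does not cover the bases before it. A match describes letters only and is not evidence of binding.

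Prss34, Mcpt8, Cpa3, Ms4a2 and Fcer1a were concentrated in a cluster of 103 cells, called basophil/mast-like because Gata2, Cyp11a1, Csrp3 and Slc18a2, from a marker list without the 10 genes, were among its leading genes. Prss34, a serine protease of mouse basophils, had 87.6% of its 3631 UMIs in these cells, at 3165 CPM (counts per 1000000, a gene's UMIs for every 1000000 UMIs of those cells) compared with 0.63 in GMP-like cells. Cpa3, the carboxypeptidase of mast cell and basophil granules, had 73.3% of its UMIs there. Fcer1a and Ms4a2, the alpha and beta chains of the IgE receptor, had 75.2% and 59.3%. Mcpt8, the other basophil-selective protease, was less confined, with 48.0% of its 8043 UMIs in these cells. The members were left out of the clustering, but the cluster was found from other genes of the same cells, so these levels are descriptions without a test.

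Few cells carried these transcripts. Prss34 was detected in 160 singlets, and its 100 highest cells held 98.3% of its UMIs. The corresponding share was 92.7% for Fcer1a, 85.5% for Cpa3, 70.6% for Ms4a2 and 67.7% for Mcpt8, whereas it was 5.02% for Hdc. Within the basophil/mast-like cells, 92.2% had Ms4a2, 88.3% had Cpa3, 72.8% had Fcer1a, 56.3% had Mcpt8 and 34.0% had Prss34. The lymphoid progenitor-like cells, which should lack these transcripts, had each of the 5 genes in 0% (Fcer1a, Wilson upper bound 2.65%) to 1.42% of 141 cells, at a median depth of 3229 UMIs compared with 8417. After thinning to 2000 UMIs per cell, the share with Cpa3 was 64.7% in the basophil/mast-like cells and 0% in the lymphoid progenitor-like cells.

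**Figure D1:**
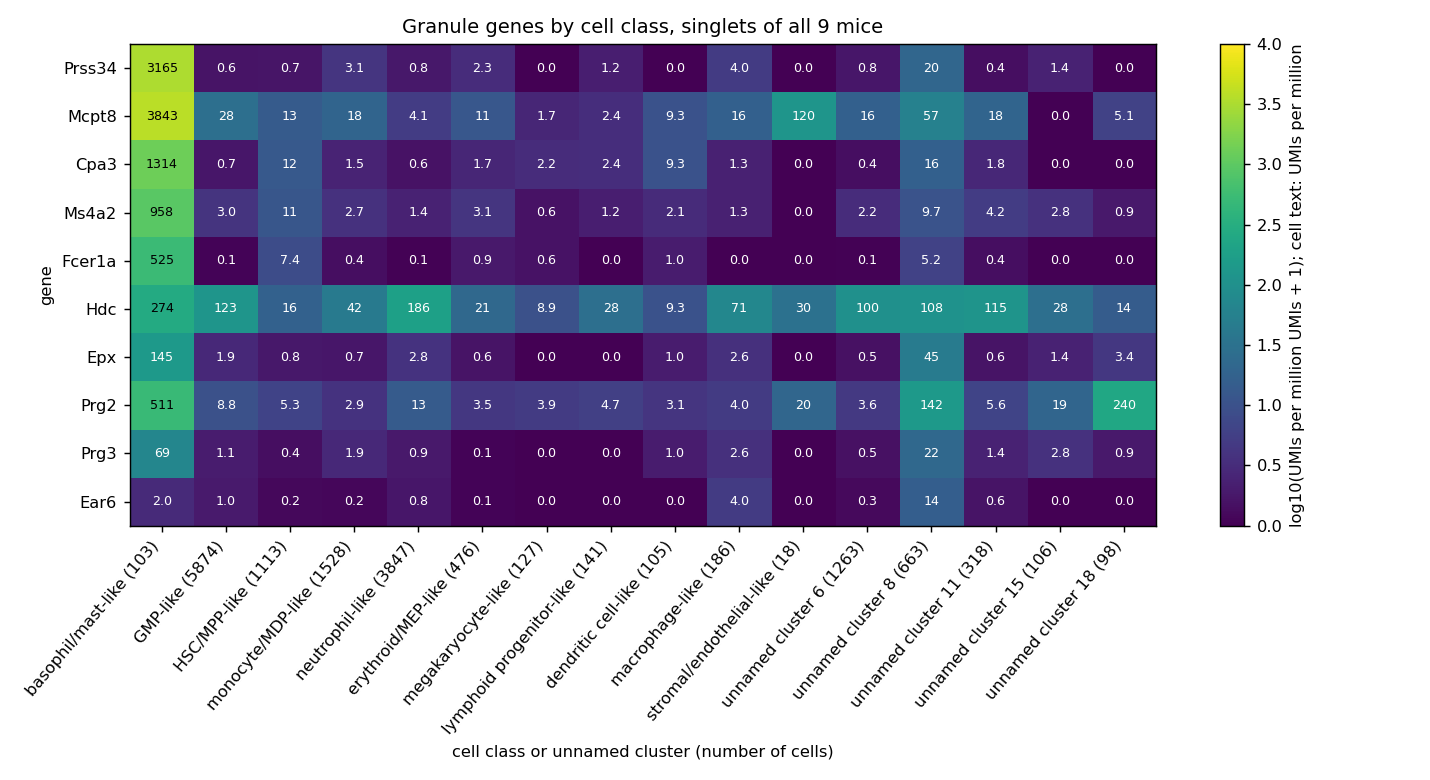
UMIs per 1000000 (CPM) of each granule gene (rows) in each cell class or unnamed cluster (columns, number of cells in parentheses), summed over the singlets of all 9 mice, with color on a log10(x + 1) scale. Prss34, Mcpt8, Cpa3, Ms4a2 and Fcer1a are highest in the 103 basophil/mast-like cells, Hdc is spread over GMP-like (123) and neutrophil-like (186) cells, and Prg2 stands at 240 in unnamed cluster 18.

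Lower levels outside that cluster differed between the genes. HSC/MPP-like cells, the stem and multipotent progenitors, held Cpa3 at 12.2, Ms4a2 at 10.7 and Fcer1a at 7.38 CPM, with Mcpt8 at 13.2 and Prss34 at 0.70. Few of the 1113 cells carried Cpa3 (4.85%), Ms4a2 (2.785%) or Fcer1a (3.68%). The 19 cells with 5 or more UMIs of the 5 genes together stood at 279.6 CPM for Cpa3, 349.5 for Ms4a2 and 118 for Fcer1a. They were picked by these UMIs, so their high levels follow from the selection. GMP-like cells held Mcpt8 at 28.3 and Prss34 at 0.63 CPM, with Cpa3 at 0.74, Ms4a2 at 2.98 and Fcer1a at 0.10. Mcpt8 was detected in 18.9% of GMP-like cells (median depth 12662 UMIs) compared with 2.36% of megakaryocyte-like cells (11437 UMIs). The ratio of Prss34 to Mcpt8 UMIs was 0.82 in the basophil/mast-like cells and 0.02 in the GMP-like cells, so the Mcpt8 of GMP-like cells did not come with Prss34 in the ratio of the basophil/mast-like cells. Of 58 GMP-like cells with 5 or more Mcpt8 UMIs, 56 had no Prss34 and 54 had none of Cpa3, Ms4a2 and Fcer1a.

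The other genes whose levels followed these sums across the 15966 singlets were found by Pearson's r of log-scaled UMIs, given here as a description of cells that share libraries and depth. For Prss34 + Mcpt8, the 5 highest among genes with 200 or more UMIs were Cyp11a1 (r = 0.42), Csrp3 (0.31), Gata2 (0.21), 4930519L02Rik (0.19) and Stx3 (0.18). For Cpa3 + Ms4a2 + Fcer1a they were Csrp3 (0.64), Cyp11a1 (0.58), Gata2 (0.46), Il1rl1 (0.40) and Slc18a2 (0.39). Cyp11a1 encodes the enzyme that starts steroid synthesis from cholesterol, Il1rl1 the IL-33 receptor and Slc18a2 the transporter that loads histamine into granules. For the eosinophil sum the values were lower, from 0.14 to 0.21, and the genes were Tent5c, Ikzf2, Jchain, Igkc and Iglc2. Hdc was followed by S100a11 (0.37), Msrb1 (0.36), Tmsb4x (0.32), Csf3r (0.31) and Hp (0.31), genes of neutrophil precursors or of most white cells.

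The 103 basophil/mast-like cells were not alike in their proteases. In 43 of them Prss34 and Mcpt8 together had 5 or more UMIs, 18 had 1 to 4, and 42 had none. The 43 cells had a median of 10008 UMIs and the other 60 a median of 7184, and both kinds occurred in all 3 groups. This split was drawn after the values were seen, so its differences are given with 95% Poisson intervals that cover counting error only and without a test.

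Cells with the proteases held more of some other basophil and mast cell genes but not of all. Cpa3 stood at 2224 CPM (2091 to 2363) compared with 517 (458 to 581), Fcer1a at 788 compared with 295, and Ms4a2 at 1295 compared with 662. Hdc did not follow them, at 271 (226 to 322) compared with 278 (235 to 326). Cd200r3, an activating receptor of basophils and mast cells, stood at 183 compared with 26.1, Alox5, which starts leukotriene synthesis, at 224 compared with 48.5, and Fcer1g, the shared gamma chain of the IgE receptor, at 524 compared with 155. Il4, a cytokine of basophils, had 13 UMIs in the 43 cells and 2 in the other 60. Alox15 had 22 UMIs in 11 of the 43 cells and 0 in the 60.

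The 60 cells with few or no protease UMIs were higher in other genes. Kit, the stem cell factor receptor that mast cells keep, stood at 248 CPM (208 to 294) compared with 81.0 (57.3 to 111) in the 43 cells. Gzmb, a granule protease that mast cells can also make, stood at 166 compared with 6.39, Id2 at 106 compared with 8.52 and Zfpm1, a GATA cofactor, at 83.9 compared with 17.04. Slc18a2, a marker used to name the cluster, was also higher in the 60 cells, at 377 (327 to 432) compared with 271 (226 to 322). Some other mast cell protease and granule genes went the other way. Srgn stood at 1580 compared with 2819, Ctsg at 246 compared with 1225 and Ndst2 at 37.3 compared with 117. Stat5b (125 compared with 72.4), Il1rl1 (172 compared with 143), Csf2rb (364 compared with 413) and Runx1 (504 compared with 509) had overlapping intervals. Gata2 was high on both sides but lower in the 60 cells, at 651 (584 to 723) compared with 878 (795 to 967). The tryptases Tpsab1 and Tpsb2 and the chymase Mcpt4, the defining proteases of tissue mast cells, had no UMI in any of the 103 cells, and the chymase Cma1 had 5 UMIs in 1 cell.

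**Figure D2:**
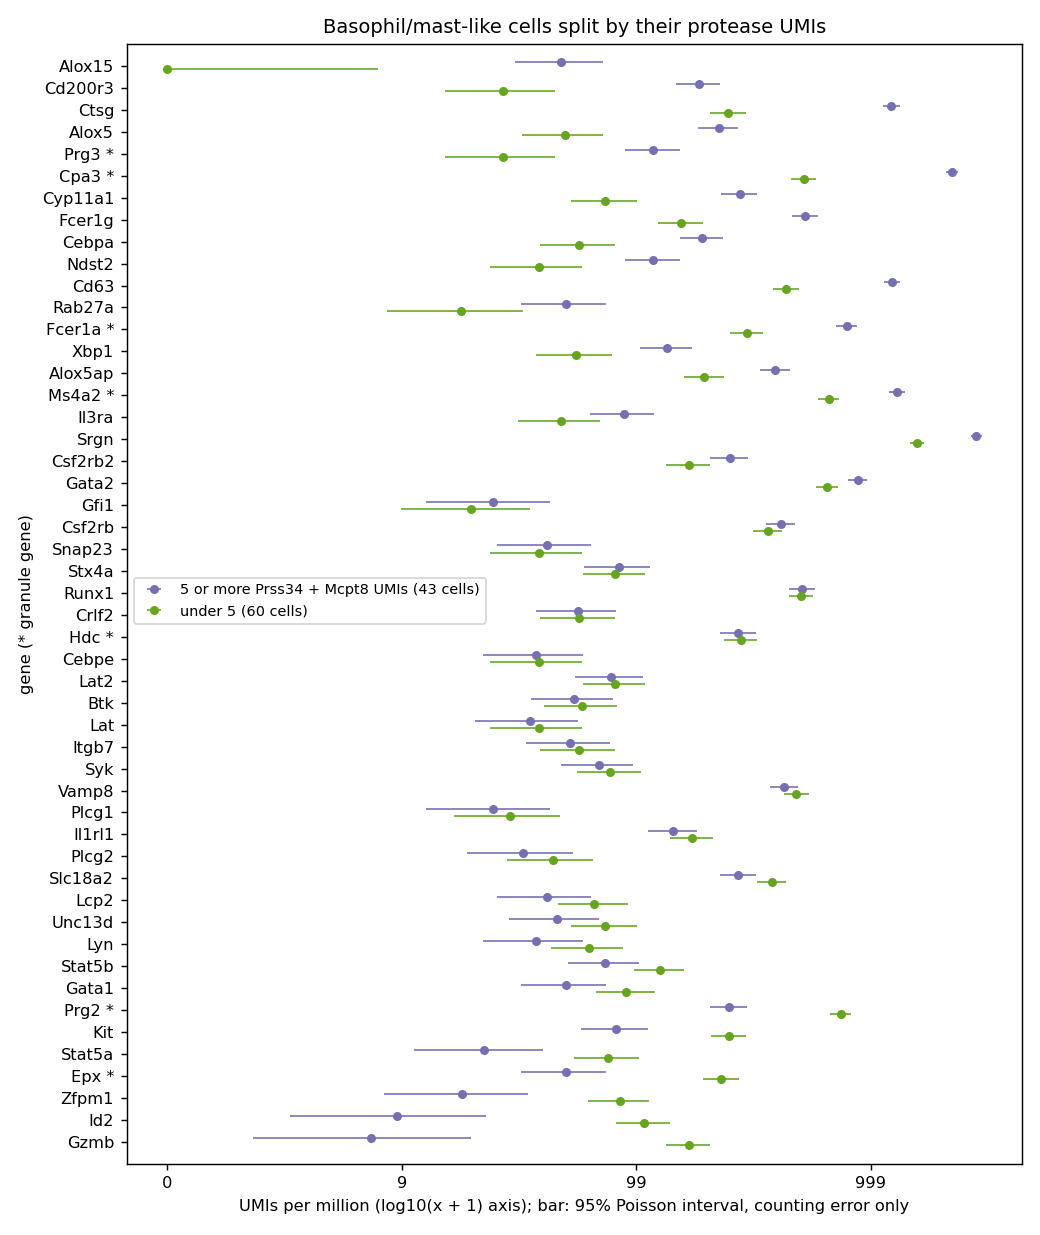
UMIs per 1000000 (CPM, log10(x + 1) axis) in the 43 basophil/mast-like cells with 5 or more Prss34 + Mcpt8 UMIs (purple) and the 60 with fewer (green), with 95% Poisson intervals, for the granule genes (*) and listed basophil, mast cell and eosinophil genes with 20 or more UMIs. Cd200r3, Alox5 and Cpa3 lie to the right in purple, Kit, Id2 and Gzmb to the right in green, and the 2 Hdc values of 271 and 278 overlap.

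The cells with eosinophil granule genes lay in several clusters. Epx, the eosinophil peroxidase, was detected in 198 singlets, Prg2, the major basic protein, in 721, Prg3, its homolog, in 178, and Ear6, a ribonuclease of the eosinophil-associated family, in 84. Cells with 5 or more UMIs summed over the 4 genes numbered 72, of which 33 held all 4. Of the 72 cells, 25 were in unnamed cluster 8, led by Cd34 and Ikzf2, 19 were in unnamed cluster 18, 16 in GMP-like cluster 1 and 4 among the basophil/mast-like cells. No cluster was called eosinophil-like. In cluster 8 the levels were 142 CPM for Prg2, 44.9 for Epx, 21.8 for Prg3 and 14.5 for Ear6, and 25 of its 663 cells carried the sums of 5 or more. The 103 basophil/mast-like cells stood at 511 CPM for Prg2, 145 for Epx, 68.6 for Prg3 and 1.99 for Ear6, with 4 cells at sums of 5 or more.

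The 16 positive cells of GMP-like cluster 1 were shallow, with a median of 1571 UMIs compared with 13194 for the whole cluster. Their Epx stood at 1298 and their Prg2 at 5753 CPM, levels that follow in part from picking cells by these UMIs. All 16 had Epx and Prg2, 13 had Prg3 and 10 had Ear6, while 8 had Hdc. Outside cluster 18, 49 of 53 positive cells had Epx and 42 had Hdc.

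Cluster 18 carried Prg2 almost without Epx, Prg3 and Ear6. Its 98 cells were led by the immunoglobulin genes Igkc, Jchain and Ighm, with Igkc alone at 328682 CPM, and 96.9% of them had Mzb1, a chaperone of antibody-secreting cells. Prg2 was detected in 49 of the 98 cells (95% Wilson interval 40.3 to 59.7%) at 240 CPM. Epx, Prg3 and Ear6 together had 5 UMIs there compared with 281 for Prg2, and 18 of the 19 positive cells held Prg2 alone. In cluster 8 the corresponding values were 1043 and 1827 UMIs. Among eosinophil marker genes, Il5ra stood at 22.2 CPM in cluster 18 (18.4% of its cells), compared with 0.29 over all singlets. Siglecf and Ear2 were lower in cluster 18, both at 0.855 compared with 9.21 and 2.42, and Ccr3 and Ear1 had no UMI there. Without Prg2 in the sum, chosen after seeing the data, the share of eosinophil-positive cells changed from 0.47 to 0.27% in BRQ mice, from 0.60 to 0.36% in NTB mice and from 0.39 to 0.26% in vehicle mice.

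A few cells held both basophil/mast and eosinophil genes. Cells were called basophil/mast-positive at 5 or more UMIs summed over Prss34, Mcpt8, Cpa3, Ms4a2 and Fcer1a, which gave 224 cells. Of these, 87 were basophil/mast-like, 59 GMP-like, 31 in cluster 8 and 19 HSC/MPP-like. At the limit, 27 cells had exactly 5 UMIs and 48 had 4, and for the eosinophil sum 6 had 5 and 10 had 4. Both sums reached the limit in 12 cells, 5.36% of the first and 16.7% of the second, beside 224 basophil/mast-positive cells among all 15966 singlets, with 8 of them in cluster 8 and 4 among the basophil/mast-like cells.

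None of the 12 cells was marked as a doublet by Scrublet, and their median depth was 14672 UMIs, compared with 13884 in the other basophil/mast-positive cells and 6343 in the other eosinophil-positive cells. Scrublet marked 8.90% of all cells of cluster 8 and 1.94% of the basophil/mast-like cells. The 12 cells came from 5 mice, with 4 cells from NTB, 3 from vehicle and 5 from BRQ mice. All 12 had Hdc, and 11 of them had no Prss34 UMI. The cell with the highest Prg2 of all, 538 UMIs in NTB 3, also had 184 Epx, 26 Fcer1a and 12 Ms4a2 UMIs and no Prss34, Mcpt8 or Cpa3. Between the 2 sides of the basophil and mast cell genes, 146 cells reached 5 UMIs of Prss34 + Mcpt8, 125 reached 5 of Cpa3 + Ms4a2 + Fcer1a, and 53 reached both. Scrublet marked 6 of these 53 cells.

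**Figure D3:**
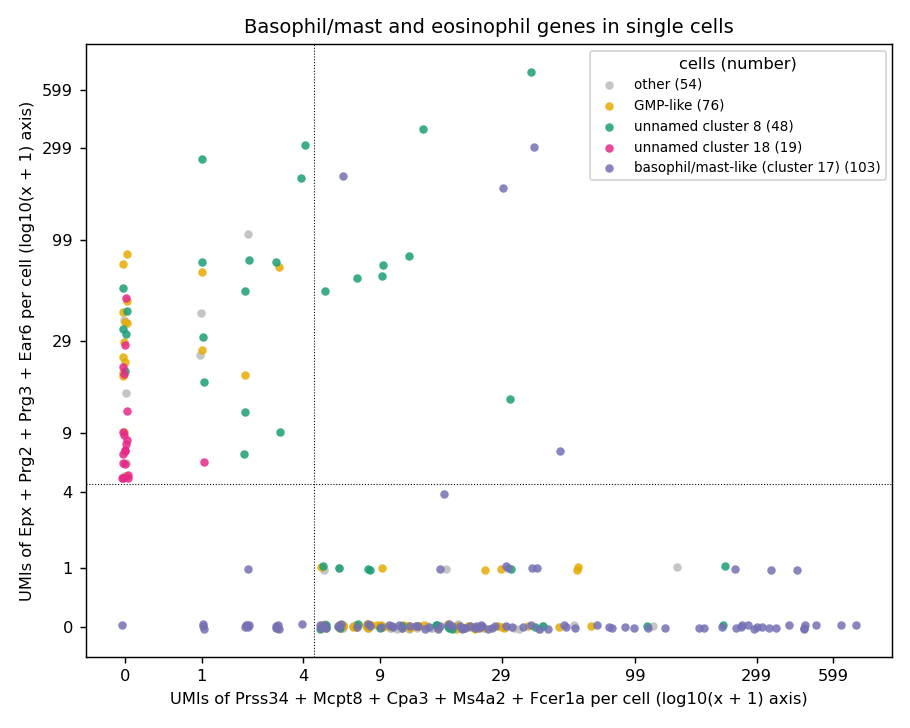
UMIs of the basophil/mast sum (horizontal) and of the eosinophil sum (vertical) in single cells, both on log10(x + 1) axes, for basophil/mast-like cells and every other singlet past either limit of 5 UMIs (dotted lines), with points jittered slightly. The upper right corner holds the 12 cells past both limits, 8 of cluster 8 and 4 basophil/mast-like, while cluster 18 lies at 0 or 1 on the horizontal axis.

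The share of basophil/mast-positive singlets was 1.44, 1.22 and 1.19% in NTB mice, 1.66, 1.57 and 0.87% under vehicle and 1.32, 1.42 and 1.75% under BRQ. The means were 1.28 ± 0.14%, 1.37 ± 0.43% and 1.498 ± 0.22% (SD, n = 3 each), and the groups overlapped. Without Mcpt8, an alternative added after seeing the data, 125 cells remained positive, with 87 of them basophil/mast-like and 1 GMP-like. The order of the means then changed, to 1.00 ± 0.13% in NTB, 0.58 ± 0.36% in vehicle and 0.76 ± 0.06% in BRQ mice. The NTB mice, at 1.08, 0.84 and 1.06%, then lay above every vehicle mouse (0.79, 0.79 and 0.16%) and every BRQ mouse (0.78, 0.69 and 0.81%). Vehicle 3 had 2 such cells of 1261 (0.16%, 95% Wilson interval 0.04 to 0.58), compared with 26 of 2447 in NTB 3 (1.06%, 0.73 to 1.55). The share of eosinophil-positive cells was 0.60 ± 0.26% in NTB, 0.39 ± 0.14% in vehicle and 0.47 ± 0.11% in BRQ mice, with overlapping ranges. No test was run on these shares.

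To compare the groups, UMIs were summed over all singlets of each mouse and tested with edgeR's quasi-likelihood test over 13234 genes, with Benjamini-Hochberg adjustment. In such sums, fewer cells of a type and less RNA per cell cannot be told apart. In vehicle compared with NTB mice, 3 of the 10 genes passed an adjusted p of 0.05, and all 3 were lower, whereas 31.2% of all tested genes were called and 13.4% were called lower. The share called among the 10 genes was thus close to that of all genes. The median log2 difference of the 10 genes was -0.78, compared with -0.01 for all genes, and 8 of the 10 were lower. Prss34, Cpa3, Ms4a2 and Fcer1a had most of their UMIs in the same basophil/mast-like cells, so these genes are not separate observations.

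Cpa3 stood at 16.4, 16.8 and 14.5 CPM (here scaled by TMM factors between mice) in the NTB mice and at 6.23, 9.56 and 2.92 in the vehicle mice. All 3 vehicle mice were below all 3 NTB mice, which held for 19.6% of all genes in the lower direction. The difference was -1.49 on the log2 scale (SE 0.34, adjusted p = 0.00622), a 2.80-fold decrease. In BRQ mice Cpa3 stood at 13.2, 6.22 and 8.06 CPM. A single cell held 81.0% of the 42 Cpa3 UMIs of vehicle 2 and another 63.4% of the 41 of vehicle 3.

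Ms4a2 stood at 20.4, 10.3 and 11.6 CPM in NTB mice, 7.60, 5.46 and 1.85 under vehicle and 9.17, 7.66 and 8.57 under BRQ. The vehicle mice were again all below the NTB mice, by -1.35 (SE 0.37, adjusted p = 0.0166). Leaving out each mouse gave differences from -2.21 (without vehicle 1, adjusted p = 0.00349) to -0.92. The call held in each of these fits, with a highest adjusted p of 0.0457. All 3 BRQ mice lay above all 3 vehicle mice, which held for 13.1% of all genes, and below all 3 NTB mice (18.5%), but neither difference passed the test (adjusted p = 0.307 and 0.172).

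Fcer1a, the partner chain, stood at 7.77, 5.15 and 4.90 CPM in NTB mice, 3.86, 3.41 and 0.43 under vehicle and 4.18, 2.70 and 3.49 under BRQ. Its groups did not overlap between NTB and vehicle, and the difference of -1.13 (SE 0.48) had an adjusted p of 0.0909. This became 0.0261 with the pool as a block and 0.1795 with DESeq2. Vehicle 3 held 6 Fcer1a UMIs in 1261 cells.

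The basophil proteases varied more within groups. Prss34 stood at 60.3, 60.99 and 17.8 CPM in NTB mice, 9.35, 43.9 and 0.21 under vehicle and 32.2, 10.4 and 9.09 under BRQ. The groups overlapped, and the difference between vehicle and NTB mice was -1.81 (SE 0.92, adjusted p = 0.159). The adjusted p was 0.0396 with the pool as a block and 0.484 with DESeq2. Single cells set much of these values, since 1 cell held 73.9% of the Prss34 UMIs of NTB 1 and 1 held 80.8% of those of vehicle 2.

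Mcpt8 stood at 74.8, 75.6 and 43.0 CPM in NTB mice, 36.2, 69.2 and 30.4 under vehicle and 50.01, 31.8 and 36.5 under BRQ. These ranges overlapped as well, with -0.58 (SE 0.29, adjusted p = 0.153) for vehicle and -0.69 (SE 0.28, adjusted p = 0.0955) for BRQ, each compared with NTB.

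**Figure D4:**
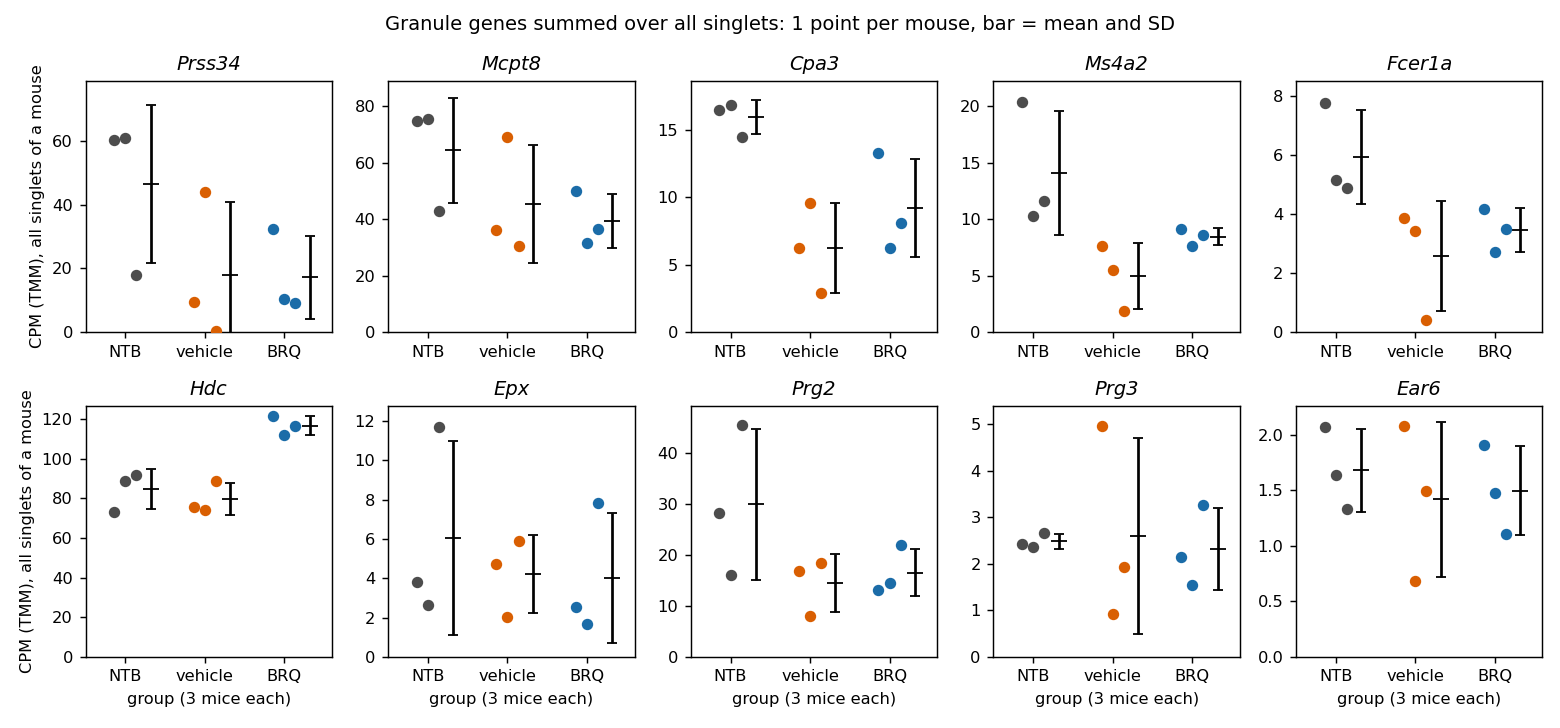
CPM (TMM-scaled) of each granule gene summed over all singlets of a mouse, 1 point per mouse in pool order, with group means and SDs (n = 3 each; bars are cut at 0). Cpa3 and Ms4a2 of the vehicle mice lie below all NTB mice, Hdc of the BRQ mice lies above all others, and Prss34 ranges from 0.21 to 60.99.

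Among the eosinophil genes, Prg2 stood at 28.2, 16.03 and 45.4 CPM in NTB mice, 16.8, 7.97 and 18.5 under vehicle and 13.1, 14.5 and 21.9 under BRQ. The difference between vehicle and NTB mice was -0.97 (SE 0.35, adjusted p = 0.0496), although the groups overlapped. It did not pass without NTB 1 (adjusted p = 0.0683), NTB 3 (0.325), vehicle 1 (0.0881), vehicle 2 (0.126), vehicle 3 (0.0673), BRQ 1 (0.0515) or BRQ 2 (0.0606), nor with DESeq2 (0.0911). In NTB 3, 1 cell held 50.9% of the Prg2 UMIs, and in vehicle 3 another held 56.0%.

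Epx, Prg3 and Ear6 passed in no comparison over all cells. Epx ranged from 2.62 to 11.7 CPM in NTB, 2.05 to 5.92 in vehicle and 1.69 to 7.83 in BRQ mice, with 67.6% of the Epx UMIs of NTB 3 in 1 cell. Prg3 lay between 0.91 and 4.96 CPM and Ear6 between 0.68 and 2.08 CPM over all 9 mice. Their differences between groups lay between -0.70 and 0.32 on the log2 scale, with SEs of 0.31 to 0.61.

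In BRQ compared with vehicle mice, Hdc alone of the 10 genes passed, while 4.07% of all genes were called and 1.36% were called higher. Hdc encodes histidine decarboxylase, which makes histamine from histidine. It stood at 73.1, 88.9 and 91.8 CPM in NTB mice, 75.4, 74.2 and 88.7 under vehicle and 121.7, 111.8 and 116.7 under BRQ. Each BRQ mouse was above every vehicle and NTB mouse, as was so for 13.1% and 21.5% of all genes. The difference was 0.55 (SE 0.09, adjusted p = 0.0086) from vehicle and 0.45 (SE 0.09, adjusted p = 0.00593) from NTB mice, and -0.10 (SE 0.10, adjusted p = 0.478) between vehicle and NTB mice.

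Of the 10 genes, 1 was also called in BRQ compared with NTB mice, where 22.7% of all genes were called and 12.2% were called higher. With the pool as a block, Prg2 and Cpa3 passed as well (adjusted p = 0.00999 and 0.0281, from 0.0689 and 0.0752), both lower in BRQ mice by 0.89 and 0.78 on the log2 scale in the fit without it. Neither passed with DESeq2 (adjusted p = 0.208 and 0.209). The count of called genes was 2 without NTB 2, NTB 3, vehicle 2 or BRQ 1 and 4 without vehicle 3. The 3 comparisons share their mice. With the cell limits read as UMIs, none of the calls given for Cpa3, Ms4a2, Prg2 and Hdc held over all cells, and Hdc was instead called 1.28 higher in vehicle than in NTB mice (adjusted p = 0.0299).

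Hdc was not a gene of the basophil/mast-like cells alone. It was detected in 8685 of the 15966 singlets, and 1.47% of its 18804 UMIs were in the basophil/mast-like cells. It stood at 274 CPM there, 186 in neutrophil-like, 123 in GMP-like, 41.8 in monocyte/MDP-like (monocyte and macrophage-dendritic progenitors) and 16.3 in HSC/MPP-like cells. This order, pooled over all mice, did not hold in each group. In NTB, vehicle and BRQ mice the group means were 101, 325 and 271 CPM in neutrophil-like and 129, 65.7 and 159 in GMP-like cells. In basophil/mast-like cells they were 297, 126 and 275, with 2 such cells each in vehicle 2 and vehicle 3. After thinning to 2000 UMIs, Hdc was detected in 22.4% of GMP-like, 31.1% of neutrophil-like, 4.72% of lymphoid progenitor-like and 0% of 125 megakaryocyte-like cells. Before thinning the corresponding shares were 70.9%, 54.5%, 5.67% and 4.72%, at median depths of 12662, 3800, 3229 and 11437 UMIs. The neutrophil-like share of singlets was 19.5 to 39.4% in NTB, 16.9 to 36.7% in vehicle and 15.4 to 18.7% in BRQ mice. With the neutrophil-like cells left out, Hdc stood at 78.7 ± 7.79 CPM in NTB, 54.9 ± 6.37 in vehicle and 115 ± 4.69 in BRQ mice (before TMM scaling, SD, n = 3 each).

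Within GMPs, the granulocyte-monocyte progenitors, Hdc was lower in vehicle mice than in both other groups. GMPs were taken by their level of Ms4a3, a gene of committed granulocyte and monocyte progenitors, on a log scale in place of the study's scaled values, which gave 3916 cells, between 88 and 1017 per mouse. Hdc stood at 117.7, 139.9 and 123 CPM in NTB mice, 75.3, 62.7 and 65.0 under vehicle and 154.8, 142.9 and 129.5 under BRQ. The vehicle mice lay below all NTB mice (13.2% of all genes tested in GMPs did) and all BRQ mice (15.3%), while BRQ and NTB mice overlapped in these TMM-scaled values. Before TMM scaling the BRQ mice, at 162, 151 and 149 CPM, lay above all NTB mice, at 108, 136 and 124 CPM. In each of the 3 pools the vehicle mouse was the lowest and the BRQ mouse the highest.

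The difference between vehicle and NTB GMPs was -0.88 on the log2 scale (SE 0.11, adjusted p = 1.749e-05), a 1.84-fold decrease, by edgeR's quasi-likelihood test over 10331 genes. BRQ GMPs were 1.04 higher than vehicle GMPs (SE 0.09, adjusted p = 8.094e-08). Between BRQ and NTB GMPs the difference was 0.16 (SE 0.10, adjusted p = 0.400). Both calls held without any 1 of the 9 mice, but not with the cell limits of 500 and 7500 read as UMIs in place of genes (adjusted p = 0.973 and 0.832), which left 8 to 89 GMPs per mouse. Of all genes, 11.3%, 13.4% and 6.01% were called in these 3 comparisons, and of the 4 granule genes that passed the filter on low counts (Hdc, Mcpt8, Ms4a2 and Prg2), 3, 2 and 1. By direction, vehicle compared with NTB gave 1 member higher and 2 lower (6.63% and 4.68% of all genes), BRQ compared with vehicle 2 higher (6.08%) and BRQ compared with NTB 1 lower (3.46%).

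The depth of GMPs differed between groups, with median UMIs per GMP of 10829 to 11581 in NTB, 14737 to 17966 in vehicle and 12169 to 15795 in BRQ mice. With each GMP thinned to 2000 UMIs, the share with Hdc was 22.1, 24.6 and 18.1% in NTB mice, 11.2, 14.9 and 14.7% under vehicle and 29.5, 27.5 and 26.4% under BRQ, and the 3 groups did not overlap. The unthinned shares were 58.0, 68.9 and 63.3%, 59.2, 55.8 and 63.0%, and 80.1, 77.7 and 84.8%, in which vehicle and NTB mice overlapped. The values by cluster that follow are CPM before TMM scaling. Within GMP-like cluster 0 the Hdc of GMPs was 93.6 to 147 CPM in NTB, 53.2 to 68.2 in vehicle and 126.9 to 146 in BRQ mice. In cluster 1 it was 135 to 161, 33.2 to 78.1 and 154 to 176, and in cluster 3 it was 114 to 130.0, 65.6 to 87.2 and 169 to 192. The vehicle mice were below all others in each of these 3 clusters. In unnamed cluster 6, which held the next most GMPs, the values were 54.2 (7 UMIs in NTB 1), 97.5 and 126 in NTB, 64.9 to 70.2 in vehicle and 126 to 144 in BRQ mice, so vehicle and NTB mice overlapped.

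**Figure D5:**
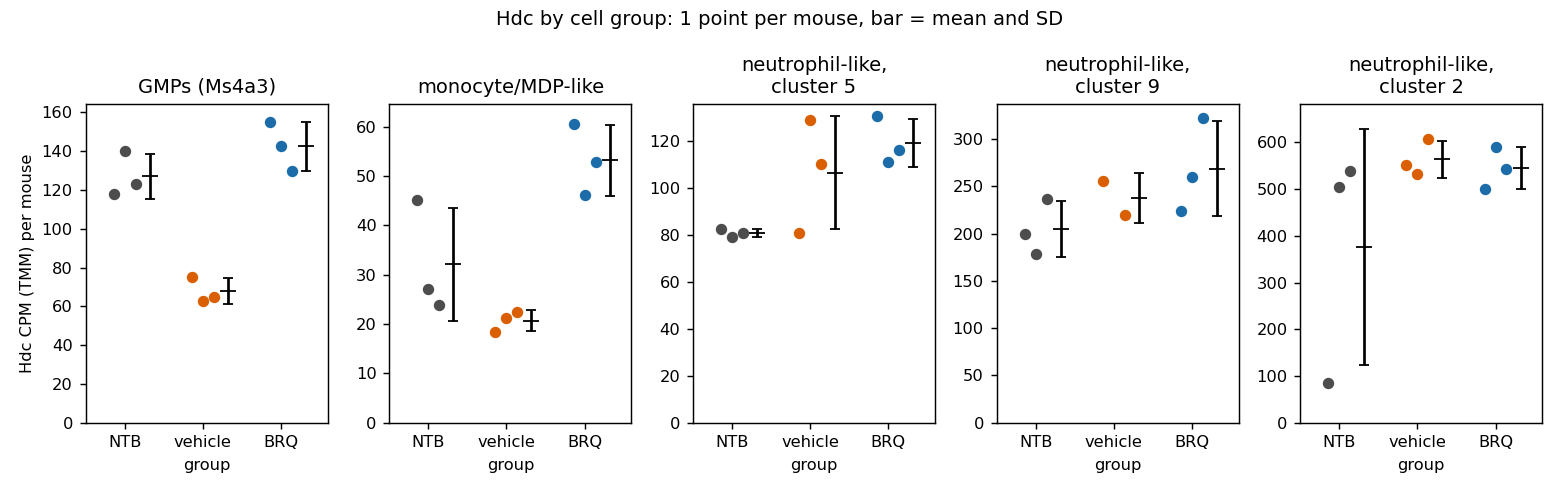
Hdc in CPM (TMM-scaled within each cell group) summed per mouse over GMPs, monocyte/MDP-like cells and 3 neutrophil-like clusters, 1 point per mouse with group means and SDs, each panel from 0 on its own axis. In GMPs the vehicle mice (62.7 to 75.3) lie below NTB and BRQ mice, and in monocyte/MDP-like cells the BRQ mice (46.1 to 60.4) lie above both other groups. Vehicle 2 is left out of cluster 9.

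Hdc was then compared in other cells, an analysis added after seeing the data. In monocyte/MDP-like cells it stood at 45.2, 27.1 and 23.9 CPM in NTB mice, 18.4, 21.2 and 22.4 under vehicle and 60.4, 46.1 and 52.9 under BRQ. All BRQ mice were above all vehicle mice (12.1% of all genes were) and all NTB mice (10.3%). BRQ exceeded vehicle by 1.41 (SE 0.16, adjusted p = 5.551e-07; 5.87% of all genes called) and NTB by 0.86 (SE 0.17, adjusted p = 0.00241; 3.39% called). The second call was lost without NTB 2 (adjusted p = 0.0595) or NTB 3 (0.0638). The difference between vehicle and NTB mice was -0.55 (SE 0.22, adjusted p = 0.148; 4.04% called).

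Neutrophil-like clusters gave another picture. Over all neutrophil-like cells, before TMM scaling and without a test, Hdc stood at 87.9, 101 and 114 CPM in NTB mice. It stood at 200, 354 and 421 under vehicle and 212, 210 and 390 under BRQ. The make-up of these cells differed, with 82, 289 and 686 cells in cluster 5 and 11, 39 and 58 in cluster 2 in NTB mice. Under vehicle these counts were 118, 17 and 25 and 298, 109 and 412. In cluster 5, led by the secondary granule genes Camp, Ngp and Ltf, Hdc stood at 82.7, 79.0 and 81.1 CPM in NTB mice, 80.8, 128.8 and 110.2 under vehicle and 130.8, 111.0 and 116.2 under BRQ. BRQ exceeded NTB there by 0.58 (SE 0.14, adjusted p = 0.00439; 7.94% called), a call lost without BRQ 1 (adjusted p = 0.106). In clusters 9 and 2, the latter led by Retnlg, Il1b and Cxcr2 of mature neutrophils, no Hdc difference passed. Levels in cluster 2 lay between 501 and 607 CPM except in NTB 1, whose 85.1 CPM rested on 2 UMIs. Whether the decrease of Hdc in vehicle mice differed between GMPs and these cells was not tested.

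The other granule genes of GMPs moved on few UMIs. Mcpt8 stood at 9.81, 20.1 and 17.3 CPM in NTB mice, 27.0, 20.1 and 43.5 under vehicle and 28.4, 21.7 and 28.9 under BRQ, on 9, 32 and 36 UMIs in the NTB mice. Vehicle GMPs were higher than NTB GMPs by 0.92 (SE 0.26, adjusted p = 0.0227), the opposite direction to the sum over all cells. The call was lost with tag ratios in place of HTODemux (adjusted p = 0.488) and without NTB 1 (adjusted p = 0.0897), NTB 2 (0.0510), NTB 3 (0.118) or vehicle 3 (0.0876). BRQ GMPs were 0.67 above NTB GMPs (SE 0.25), with an adjusted p of 0.124. This became 0.0165 with the pool as a block and 0.168 with DESeq2.

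Ms4a2 in GMPs stood at 3.19, 3.90 and 5.10 CPM in BRQ compared with 1.95, 1.88 and 1.75 in vehicle mice, without overlap. The difference was 1.11 (SE 0.30, adjusted p = 0.0158), lost without vehicle 1 (0.117), vehicle 3 (0.0584) or BRQ 3 (0.0520) and with DESeq2 (0.104). The NTB mice, at 4.36, 1.25 and 1.93 CPM, held 2 to 4 UMIs each.

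Prg2 in GMPs stood at 0, 20.7 and 14.4 CPM in NTB mice, 3.29, 3.13 and 3.88 under vehicle and 1.64, 2.71 and 6.45 under BRQ. It was called lower than in NTB mice in vehicle (-1.95, SE 0.52, adjusted p = 0.0167) and in BRQ mice (-1.84, SE 0.48, adjusted p = 0.0227). These calls rested on single cells, since 1 GMP held 30 of the 33 UMIs of NTB 2, another held 20 of the 30 of NTB 3, and NTB 1 had none. Without NTB 2 the adjusted p was 0.201 for vehicle and 0.272 for BRQ, and without NTB 3 it was 0.115 and 0.141. The vehicle call was also lost without vehicle 1 (0.0910) and the BRQ call with DESeq2 (0.412), while without BRQ 3 the BRQ difference was -2.64 (adjusted p = 1.559e-04).

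Within the basophil/mast-like cells, the groups could be compared only between BRQ and NTB mice, in the 3 BRQ and 2 NTB mice with 10 or more such cells, because 2 of the 3 vehicle mice had 2 cells each. None of the 8 granule genes tested passed, nor did any of the 3042 genes (0.0% called by edgeR, with 280 at an unadjusted p under 0.05, and 0 called by DESeq2). Mcpt8 stood at 10493 and 5663 CPM in NTB 2 and 3 and at 5160, 2196 and 2819 CPM in BRQ mice, without overlap (-1.24, SE 0.24, adjusted p = 0.0881). Cpa3 stood at 2510 and 2013 CPM compared with 1952, 727 and 1242 (-0.77, SE 0.25, adjusted p = 0.400). Ms4a2 and Fcer1a differed by -0.30 (SE 0.19) and -0.15 (SE 0.24). BRQ mice were all lower for 13.8% of all genes and for 3 of the 8, Mcpt8, Cpa3 and Ms4a2.

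Leaving out BRQ 1 or BRQ 3 gave 1 called granule gene each, which was Mcpt8 both times. Leaving out NTB 2 or NTB 3 gave 2 and 5, but then 1 NTB mouse remained, the spread came from the BRQ mice alone, and the lone mouse was assumed to vary like them. In the 5 tested mice, Prg2 in these cells came almost wholly from NTB 3 and BRQ 3, where single cells past both limits held 199 of 200 and 197 of 200 Prg2 UMIs. Vehicle 1, the vehicle mouse with 17 such cells, entered no test.

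Other genes of the same pathways, from lists chosen with earlier results of these data known, changed in both directions over all cells. In vehicle compared with NTB mice, 5 of 15 tested genes of IgE receptor signaling and degranulation were called (2 higher, 3 lower), 4 of 5 mast cell protease and granule genes (2 higher, 2 lower), 8 of 18 regulators and surface receptors (2 higher, 6 lower), 2 of 8 eicosanoid and cytokine genes (both lower) and 6 of 11 eosinophil genes (2 higher, 4 lower), beside the 31.2% of all genes. In BRQ compared with vehicle mice the counts were 1, 0, 0, 0 and 2, beside 4.07%. In BRQ compared with NTB mice they were 4 (all lower), 3 (2 higher, 1 lower), 9 (3 higher, 6 lower), 2 (both lower) and 7 (2 higher, 5 lower), beside 22.7%.

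Several called genes of these lists were also at home in other cells. Snap23, a fusion protein of granule release, was 0.59 higher in vehicle than in NTB mice (SE 0.10, adjusted p = 0.00102) and 0.40 lower in BRQ than in vehicle mice (SE 0.09, adjusted p = 0.0296). Vamp8, another fusion protein, was 0.26 higher in vehicle mice (adjusted p = 0.00686), and Lcp2, the adaptor SLP-76, was lower in vehicle (-0.44, adjusted p = 0.00345) and BRQ mice (-0.29, adjusted p = 0.0314), each compared with NTB. Fcer1g was lower in BRQ than in NTB mice (-0.60, adjusted p = 0.00311). In the basophil/mast-like cells Snap23 stood at 38.8 CPM compared with 36.3 over all singlets, and Fcer1g at 327 compared with 238.

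Srgn, the proteoglycan core of many granules, rose in vehicle mice from 1535 ± 220 to 2865 ± 111 CPM and Ctsg, cathepsin G, from 1123 ± 364 to 2488 ± 279 CPM (adjusted p = 2.059e-04 and 0.00135). Both also differed between BRQ and NTB mice (0.51 and 0.88, adjusted p = 0.00617 and 0.00888). Ctsg stood at 703 CPM in the basophil/mast-like cells and at 1986 CPM over all singlets.

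Kit fell in vehicle mice by 0.47 (SE 0.09, adjusted p = 0.00222), and Csf2rb, the common receptor chain for IL-3, IL-5 and GM-CSF, rose from 45.3 ± 7.77 to 102 ± 14.6 CPM (adjusted p = 0.00305) and stood at 85.1 ± 32.6 CPM in BRQ mice (adjusted p = 0.0150 compared with NTB). Cd63, a granule membrane protein, was lower in BRQ than in NTB mice (-0.48, adjusted p = 0.0402). Alox5 fell from 34.9 ± 9.08 CPM in NTB to 15.2 ± 2.96 in vehicle and 16.9 ± 2.22 in BRQ mice (adjusted p = 6.993e-04 and 0.00196).

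From the eosinophil list, Id2, a regulator of many lineages, fell from 56.8 ± 9.13 CPM in NTB to 27.0 ± 4.33 in vehicle and 18.8 ± 3.31 in BRQ mice (adjusted p = 5.712e-04 and 6.003e-04), and Zfpm1 fell by 1.01 and 0.82 (adjusted p = 0.00515 and 0.0155). Xbp1, a factor of secretory cells, was higher in vehicle mice (179.5 ± 11.9 CPM) than in NTB (118 ± 2.91) and BRQ mice (131 ± 14.1), with adjusted p of 4.320e-04 and 0.0119. Gfi1 was 0.34 higher in BRQ than in NTB mice (adjusted p = 0.0151).

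Some of these calls rested on single mice. Between BRQ and vehicle mice, the Snap23 call was lost without NTB 2, vehicle 2, vehicle 3 or any 1 BRQ mouse (adjusted p = 0.0519 to 0.124) and the Xbp1 call without vehicle 3, BRQ 1 or BRQ 2 (0.0547 to 0.0653). Between BRQ and NTB mice, Lcp2 was lost without NTB 2, NTB 3 or any 1 BRQ mouse (0.0637 to 0.135), Cd63 without NTB 1, NTB 2, vehicle 3, BRQ 1 or BRQ 3 (0.0509 to 0.133), Gfi1 without BRQ 3 (0.0562) and Zfpm1 without NTB 3 (0.0864).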

How the data were processed

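Bone marrow cells enriched for c-Kit were profiled from 9 BALB/c mice in 3 pools with hashtag antibodies. The authors deposited raw UMI counts per gene and hashtag for each barcode that Cell Ranger 6.0.0 called as a cell, and the submitters' processing notes name mm10 and Seurat. Singlets were called here with HTODemux (Seurat 5.3.0, quantile 0.99) and kept at up to 15% mitochondrial UMIs and 500 to 7500 detected genes. The study words those limits as transcripts, and reading them as UMIs was tried as an alternative. Cells were clustered with scanpy 1.11.5 (2000 variable genes without the 10 described, 30 components, Leiden resolution 0.8), and clusters were named from marker lists. Scrublet marked 3.58 to 5.38% of cells per pool, which stayed in, and leaving them out was an alternative. GMPs were singlets with ln(1 + Ms4a3 UMIs per 10000) over 3, whereas the study took its Ms4a3 limit on scaled, regressed values after an annotation of cell types, so its GMPs may be other cells.

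UMIs were summed per mouse and tested with edgeR 4.0.16 (TMM, filterByExpr, two-sided quasi-likelihood test, all mice in 1 fit, Benjamini-Hochberg over all genes tested). Other settings were DESeq2 1.42.0 and its size factors, no filter on low counts, tag ratios of 2 or more in place of HTODemux, each mouse left out, and the pool as a block. A block pairs mice because the labels place 1 mouse of each group in each lane. Deviations from the group means correlated with a median r of 0.11 (-0.08 to 0.15, 9 pairs) within pools and -0.03 between pools over all cells, and 0.08 (-0.02 to 0.20) and -0.05 in GMPs. Intervals and limits on shares cover counting error only. Counts near the 3′ end do not compare levels between genes. Named genes were the 10 genes, the called genes of each list with a mean of 20 CPM or more and the smallest adjusted p (up to 3), and the 5 genes most like each sum. Genes singled out by the split of the basophil/mast-like cells were chosen after their values were seen. The 10 genes and the lists were chosen with earlier results of these data known. The edgeR script was tested on simulated data.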

Additional observations from a re-analysis of the deposited data

How the results depend on the processing

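With the pool as a replicate block, 5 granule genes were called in vehicle compared with NTB mice (3 without it), 3 in BRQ compared with NTB mice (1) and 1 in BRQ compared with vehicle mice (1), and Hdc in GMPs differed by -0.90, 1.04 and 0.14. In GMPs the block added the Mcpt8 call in BRQ compared with NTB mice (adjusted p = 0.0165), and it changed no other call of the granule genes. Without the filter on low counts, 6 and 4 granule genes were called in vehicle and BRQ compared with NTB mice, and 4 in the basophil/mast-like cells. BRQ compared with NTB mice gave 3 with tag ratios and 2 without Scrublet-marked cells. Leaving out each mouse gave 2 to 4 called genes in vehicle compared with NTB, 1 to 1 in BRQ compared with vehicle, 1 to 4 in BRQ compared with NTB and 0 to 5 in the basophil/mast-like cells, where the 5 came from a fit with 1 remaining NTB mouse. Reading the cell limits as UMIs removed most GMPs by construction and left 3621 genes tested in them. It gave 1, 0 and 0 called granule genes over all cells (the 1 being Hdc), Hdc in GMPs at -0.092 (vehicle compared with NTB) and 0.75 (BRQ compared with vehicle), neither past the threshold, and the opposite direction, also not past it, for Prg2 (0.16) and Cpa3 (0.39) in vehicle compared with NTB and Hdc (-0.42) in BRQ compared with vehicle mice over all cells. The Mcpt8 call in GMPs was lost with tag ratios and the Ms4a2 call with an Ms4a3 limit of 2.5.

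Shares of cells moved with the limit, in percent and in the order NTB, vehicle, BRQ. For basophil/mast-positive cells (1.28, 1.37, 1.498) they were 3.07, 4.57 and 5.63 at 2 UMIs, 0.849 (NTB) and 0.997 (BRQ) at 10 UMIs, 0.713, 0.377 and 0.509 after thinning to 2000 UMIs, 0.918, 0.558 and 0.512 with the limits read as UMIs, and 0.996, 0.578 and 0.759 without Mcpt8. For eosinophil-positive cells (0.604, 0.386, 0.469) they were 1.20, 0.780 and 1.053 at 2 UMIs, 0.285 (BRQ) at 10 UMIs, 0.253 (NTB) and 0.223 (BRQ) after thinning, 0.925, 0.625 and 0.795 with the limits read as UMIs, 0.636 (BRQ) with tag ratios and 0.272 (BRQ) without Prg2. Co-detection counted 12 cells at 5 UMIs, 27 at 2, 6 at 10 and 3 after thinning, the last 3 limits being added after seeing the data. Thinning left out 1470 shallower singlets. The order of the group means turned with tag ratios, at 1.295, 1.527 and 1.371 for basophil/mast-positive and 0.571, 0.299 and 0.636 for eosinophil-positive cells. It also turned with thinning for both, where the eosinophil-positive share of vehicle mice stood at 0.263. For basophil/mast-positive cells it turned as well with the limits read as UMIs and without Mcpt8. The cause of the moves was not tested. Few UMIs limit Ear6, Prg3, Fcer1a and Epx, at 297, 528, 702 and 979 in all.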
